A study of Homo sapiens with 30 samples.

Results

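The genes described here encode 9 subunits of the Integrator complex that are not part of SOSS, the single-stranded DNA binding complex that INTS3 shares with the proteins hNABP1 and hNABP2. They were taken by symbol (INTS1, INTS2, INTS4, INTS5, INTS7, INTS8, INTS9, INTS10 and INTS12), and they are 9 of the 26473 gene symbols in the table of run-on counts. The cells were HT1080, a human fibrosarcoma line, at passages 10 to 15. Nascent transcription was measured by global run-on sequencing, in which nuclei extend engaged transcripts with a labelled nucleotide, in libraries labelled hNABP2 KO, hNABP1 KO and WT, each prepared both in the presence of nucleotides (with NTP) and in their absence (no NTP), 3 libraries per group and 18 in all. The other libraries used were 2 anti-hNABP2 ChIP-seq libraries of WT cells and 4 DRIP-seq libraries, which capture RNA:DNA hybrids, without RNase H from hNABP2 KO and WT cells. How the knockouts were made, and whether each line was 1 clone, was not stated in the material at hand. The labels mention 2 independent experiments beside the 3 run-on repeats, and the p-values and SDs measure the spread between these libraries, which may be technical.

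Integrator is a large complex that binds RNA polymerase II close to promoters. It carries an endonuclease, which cuts nascent RNA and so ends short or paused transcripts, forms the 3′ ends of the U snRNAs, and processes enhancer RNAs. It also carries a phosphatase arm, which recruits PP2A to remove phosphates from the polymerase and its pausing factors. INTS1, INTS2 and INTS7 build its backbone, with INTS12 attached to INTS1. INTS4 and INTS9 form the cleavage module with the endonuclease INTS11, INTS5 and INTS8 hold PP2A, and INTS10 belongs to a separate arm with INTS13 and INTS14.

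The depth of the run-on libraries limits every statement on these genes. Repeats 1 and 2 held 5272 to 19581 counts per library over all genes and repeat 3 held 19247 to 164357. In repeats 1 and 2, 87 of the 108 member values were 0, the highest was 7 counts, and the limit that a count of 0 allows (3 counts) stood at 153 to 569 CPM, that is counts per 1000000 counts of the library. The 2 ribosomal RNA genes took 0.272% to 13.1% of a library. Every marker gene looked at, of each cell type, had a count in some library. The summed level per library was 1818 to 42070 CPM for 12 mesenchymal genes and 104 to 2838 CPM for 6 epithelial genes. For 4 leukocyte genes it was 0 to 312 CPM and for 4 neural genes 0 to 628 CPM. These sums are over lists of unlike size. NABP2 had 4, 3 and 15 counts in hNABP2 KO repeats 1 to 3 with NTP, against 4, 0 and 8 in WT. NABP1 had 0, 1 and 18 counts in hNABP1 KO, against 1, 0 and 19 in WT. With the deleted part not given, counts over the whole gene do not check the labels, and "KO" below means the libraries so labelled.

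RefSeq promoters (GRCh38.p14, 250 bases before the gene start and 50 from it on) were at hand for 5 of the 9 genes, namely INTS1, INTS2, INTS4, INTS7 and INTS12. INTS1 is shown because an hNABP2 ChIP peak covered its start, and INTS4 and INTS7 because run-on peaks lay there. INTS2, whose run-on peak was weaker, is not shown. INTS4 and INTS7 were added to the display once their peaks were known. Each is on the minus strand and is written 5′ to 3′ along the gene, and capitals mark matches on either strand to the ETS-type motif CCGGAAG, the SP1-type motif GGGCGG, the CCAAT box and the CRE-type motif TGACGT.
INTS1, chr7:1504340-1504639: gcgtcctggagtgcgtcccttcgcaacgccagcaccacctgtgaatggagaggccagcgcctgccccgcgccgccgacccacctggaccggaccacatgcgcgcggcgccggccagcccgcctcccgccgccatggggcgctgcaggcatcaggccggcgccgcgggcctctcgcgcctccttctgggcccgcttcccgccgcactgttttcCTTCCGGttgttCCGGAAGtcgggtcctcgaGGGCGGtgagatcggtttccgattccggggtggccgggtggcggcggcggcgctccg
INTS4, chr11:77994619-77994918: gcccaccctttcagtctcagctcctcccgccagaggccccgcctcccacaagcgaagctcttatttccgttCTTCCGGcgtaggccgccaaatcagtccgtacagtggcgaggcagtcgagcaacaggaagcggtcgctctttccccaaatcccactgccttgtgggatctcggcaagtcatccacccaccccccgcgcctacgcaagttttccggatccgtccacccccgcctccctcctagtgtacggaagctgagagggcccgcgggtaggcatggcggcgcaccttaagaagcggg
INTS7, chr1:212035508-212035807: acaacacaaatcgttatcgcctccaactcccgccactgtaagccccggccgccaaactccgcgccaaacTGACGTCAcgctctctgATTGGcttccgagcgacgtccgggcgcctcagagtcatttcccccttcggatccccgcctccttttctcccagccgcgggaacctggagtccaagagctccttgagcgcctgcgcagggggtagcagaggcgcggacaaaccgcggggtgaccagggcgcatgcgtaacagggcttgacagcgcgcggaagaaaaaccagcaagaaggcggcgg
The INTS1 promoter held 42 CG dinucleotides, INTS4 25 and INTS7 31, where the median over the promoters in the table was 14. CCGGAAG matched at 2 places in INTS1 and at 1 place in INTS4, and 10.3% of 35116 promoters held it. GGGCGG matched once in INTS1 and is held by 45.0% of promoters. In INTS7, TGACGT matched on both strands at overlapping positions (7.98% of promoters hold it), and CCAAT matched once on the opposite strand (34.6%). TATAAA, found in 11.5% of promoters, and GATGGCG, found in 4.20%, did not occur in these 3 windows.

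The ChIP libraries ask where hNABP2 sits on chromatin in WT cells. Promoter peaks (within 1 kb of a transcript start in the deposited annotation) named 3 of the 9 genes in repeat 1, INTS1, INTS5 and INTS10, where 35.7% of 20056 protein-coding genes were named. In repeat 2 they named 0 of the 9 genes, where 11.6% of protein-coding genes were named. So no member had a peak in both repeats, and 3 of 9 lies close to the share of all genes. Repeat 1 held 10068 peaks and repeat 2 held 2832.

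In each peak the fold over local background and the −log10 q are the authors' own values. At INTS1, the largest subunit and the scaffold of the backbone, the peak at chr7:1504153-1504734 reached across the RefSeq start to 236 bases into the gene, over the whole promoter printed above, with a fold of 3.05 and a −log10 q of 19.0. A weaker INTS1 peak at chr7:1474094-1474257 (fold 2.3, −log10 q 6.39) lay inside the gene, before the start of a short INTS1 transcript. INTS5, which helps to hold PP2A, had the highest fold of the members, 4.39, with a −log10 q of 26.6 at chr11:62653061-62653379, over the gene's start. INTS10, of the separate arm, had a peak over a transcript start at chr8:19817323-19817739, with a fold of 3.08 and a −log10 q of 11.4. Over the whole list of repeat 1 the median fold was 3.21 and the median −log10 q 12.1. By −log10 q the INTS5 peak ranked 1726, the INTS1 start peak 2996 and the INTS10 peak 5249 among 10055 annotated peaks.

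The members outside these 3, which include both cleavage-module genes INTS4 and INTS9, had no promoter peak in either ChIP list. Of the 11 other Integrator and SOSS genes in the tables, 7 were named in repeat 1 and 2 in repeat 2. For these and the lists that follow, the share of protein-coding genes named was 35.7% in repeat 1 and 11.6% in repeat 2. INTS6 and INTS15 were named in both. Of the PP2A core genes 3 of 4 were named in repeat 1 and 1 in repeat 2, of the snRNA transcription genes 7 and 2 of 9, of the pausing genes 8 and 3 of 11, and of the mRNA 3′ cleavage genes 4 and 1 of 10. These lists, like the members, were drawn up with earlier results of the data known, and the counts are a description.

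The run-on libraries gave the 9 genes 346 counts over 18 libraries, of which 311, or 89.9%, came from repeat 3 (82.6% for all genes). With NTP they had 265 counts, 255 of them in repeat 3. With NTP, the counts of every member came almost wholly from repeat 3, with 67 of 73 for INTS1 and 26 of 28 for INTS10. Per kb of gene span, a measure that takes introns in, INTS5 was the densest with 2.48 counts with NTP and INTS1 followed with 2.14. INTS10 had 0.808, INTS7 0.610, INTS12 0.460, INTS2 0.351, INTS9 0.229, INTS8 0.205 and INTS4 0.133 counts per kb. INTS5 spans 6.46 kb, INTS9 122 kb and INTS4 120 kb. With 12 to 28 counts behind most of these values, neighbours in the order cannot be told apart at this depth, and 49 of the 58 INTS7 counts came from 1 library.

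**Figure D1:**
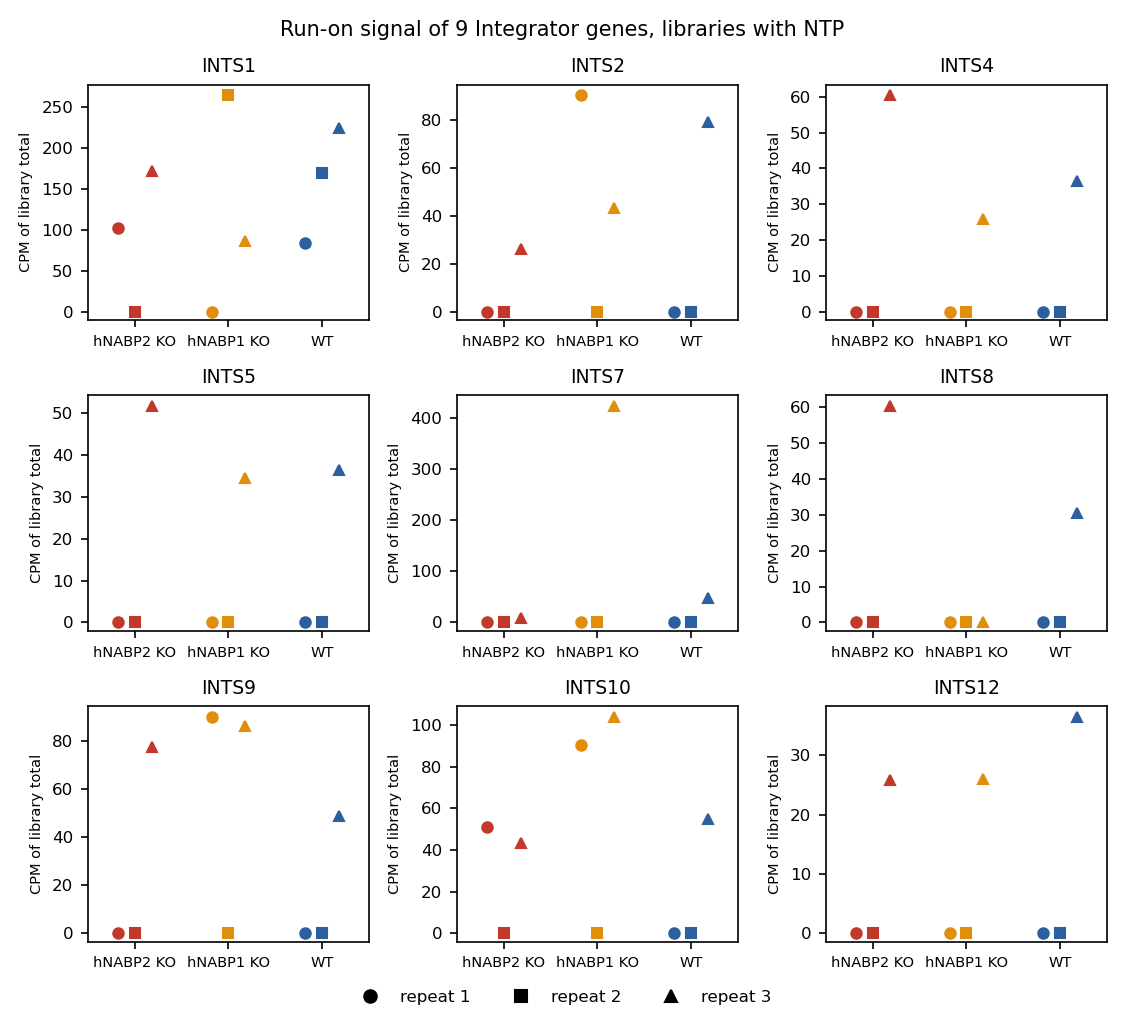
Run-on signal of each gene in the 9 libraries with NTP, in CPM of the library total on a linear axis. Groups run from hNABP2 KO over hNABP1 KO to WT and the marker shape gives the repeat. Most points of repeats 1 and 2 lie at 0, and INTS7 in hNABP1 KO repeat 3 stands at 424 CPM.

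Among the backbone genes, INTS1 (chr7:1470277-1504389) was the only member with counts in most libraries. With NTP it had, in hNABP2 KO repeats 1 to 3, 102, 0 and 173 CPM, in hNABP1 KO 0, 265 and 86.6 CPM, and in WT 83.5, 170 and 225 CPM. In bulk run-on libraries fewer transcribing cells and less signal per cell cannot be told apart. The 3 groups overlapped, with means of 91.6 ± 86.7 CPM in hNABP2 KO, 117 ± 135 in hNABP1 KO and 160 ± 71.4 in WT (SD, n = 3 each). In edgeR's quasi-likelihood test INTS1 differed from WT by -0.32 on the log2 scale in hNABP2 KO (SE 1.27, adjusted p = 1.00) and by -0.61 in hNABP1 KO (SE 1.32, adjusted p = 0.999).

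INTS2 (chr17:61865367-61927982), another backbone subunit, with NTP had 0, 0 and 3 counts in hNABP2 KO, 1, 0 and 5 in hNABP1 KO and 0, 0 and 13 in WT. Its repeat 3 levels were 25.9 CPM in hNABP2 KO, 43.3 in hNABP1 KO and 79.1 in WT. Both knockout libraries of repeat 3 were below WT, by a ratio of 0.327 for hNABP2 KO (95% counting interval 0.0598 to 1.19) and of 0.547 for hNABP1 KO (0.153 to 1.64). Each interval includes equality, and repeat 1 had its 1 count in hNABP1 KO.

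INTS7 (chr1:211940403-212035557), the remaining backbone gene, had 0, 0 and 1 counts in hNABP2 KO, 0, 0 and 49 in hNABP1 KO and 0, 0 and 8 in WT. In repeat 3 these are 8.63 CPM in hNABP2 KO, 424 in hNABP1 KO and 48.7 in WT. The hNABP1 KO library of repeat 3 was thus high, while repeats 1 and 2 of every group were at 0 with limits of 153 CPM or more, so that the groups overlapped. Within repeat 3 the hNABP1 KO level was 8.71 times the WT level (95% counting interval 4.09 to 21.3), and 64 of 13447 genes, 0.476%, had a ratio at least as high (median of all genes 0.813). INTS7 is among these genes only through hNABP1 KO repeat 3, with 9 counts without it. For this share counts under 3 were set to 3, so genes with few counts there could not reach 8.71. The 0.476% therefore does not measure how rare such a ratio is. The INTS7 level in hNABP2 KO was 0.177 times WT (0.00399 to 1.32) and 0.0203 times hNABP1 KO (0.000505 to 0.119).

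The test over all 3 repeats gave INTS7 a log2 fold change of 2.92 in hNABP1 KO against WT (SE 1.44, unadjusted p = 0.0426, edgeR adjusted p = 0.999) and of -4.79 in hNABP2 KO against hNABP1 KO (SE 1.72, unadjusted p = 0.00533, edgeR adjusted p = 1.00). With the repeat number as a block, INTS7 passed in hNABP2 KO against hNABP1 KO, with a log2 fold change of -5.5 (SE 1.24, edgeR adjusted p = 0.0345), as 1 of 19 genes called, all lower, or 0.141% of the genes tested. In hNABP1 KO against WT the blocked fit gave INTS7 3.45 (SE 0.953, edgeR adjusted p = 0.0973), with 16 genes called, all higher (0.119%), and no member among them. Without hNABP1 KO repeat 3 the blocked fits called 0 genes in all 3 genotype comparisons, and INTS7 was left with 9 counts, under the filter of 10, and was not tested. The call therefore rests on that 1 library.

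That library also stood apart in its peaks. Run-on peaks numbered 9965 in hNABP1 KO repeat 3 and 94 to 518 in the other 8 libraries with NTP. The INTS7 run-on peak there, at chr1:212035226-212035742, ran from 185 bases before the start to 331 bases into the gene, with a fold of 16.9 and a −log10 q of 44.0. The promoter printed above lies partly within it. DTL, which encodes a substrate receptor of a ubiquitin ligase, begins 190 bases from INTS7 in the opposite direction, and it had 0, 0 and 4 counts in hNABP2 KO, 1, 0 and 42 in hNABP1 KO and 0, 0 and 7 in WT. The counted strand is not known from the material at hand, and signal of this shared start region could not be divided between both genes. The part of this library's peaks and of DTL in the INTS7 result was not tested.

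INTS12 (chr4:105682627-105708689), a small subunit with a PHD finger, had 3 counts in hNABP2 KO, 3 in hNABP1 KO and 6 in WT with NTP, all in repeat 3. Its levels there were 25.9 CPM in hNABP2 KO, 26.0 in hNABP1 KO and 36.5 in WT. The ratio to WT was 0.709 for hNABP2 KO (0.115 to 3.32) and 0.711 for hNABP1 KO (0.115 to 3.33), so that no difference was detectable at this depth. The neighbouring GSTCD starts 94 bases away.

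In the cleavage module, INTS9 (chr8:28767661-28889969), the inactive partner of the endonuclease, had 0, 0 and 9 counts in hNABP2 KO, 1, 0 and 10 in hNABP1 KO and 0, 0 and 8 in WT. Repeat 3 stood at 77.6 CPM in hNABP2 KO, 86.6 in hNABP1 KO and 48.7 in WT. The ratio to WT was 1.60 in hNABP2 KO (0.546 to 4.75) and 1.78 in hNABP1 KO (0.632 to 5.19), and both intervals include equality. Its log2 fold change in hNABP1 KO was 1.28 (SE 1.64, edgeR adjusted p = 0.999).

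INTS4 (chr11:77874362-77994668), the HEAT-repeat protein that joins INTS9 and INTS11, had 7 counts in hNABP2 KO, 3 in hNABP1 KO and 6 in WT, all in repeat 3. That is 60.4 CPM in hNABP2 KO, 26.0 in hNABP1 KO and 36.5 in WT. The hNABP2 KO level was 1.65 times WT (0.476 to 5.96) and the hNABP1 KO level 0.711 times WT (0.115 to 3.33). INTS4 overlaps AAMDC over 31.7 kb and has pseudogene copies, so its counts are uncertain. Of these copies INTS4P2 had 3 counts over the 18 libraries.

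In the phosphatase arm, INTS5 (chr11:62646848-62653302) had 6 counts in hNABP2 KO, 4 in hNABP1 KO and 6 in WT with NTP, all in repeat 3, or 51.8 CPM in hNABP2 KO, 34.6 in hNABP1 KO and 36.5 in WT. The ratios to WT were 1.42 for hNABP2 KO (0.379 to 5.30) and 0.948 for hNABP1 KO (0.197 to 4.0). INTS8 (chr8:94823287-94881746), which anchors PP2A, had 7 counts in hNABP2 KO, 0 in hNABP1 KO and 5 in WT, again all in repeat 3. In hNABP2 KO it stood at 60.4 CPM, 1.98 times the WT level of 30.4 CPM (0.542 to 7.93). It was the single member with no count in an hNABP1 KO library of any repeat, with or without NTP. Against the limit of 3 counts in hNABP1 KO repeat 3 its level was at least 1.17-fold lower than in WT, a bound that takes no account of the counting error of the 5 counts in WT. The 95% counting interval of the ratio reached 1.55 and so includes equality.

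INTS10 (chr8:19817416-19852067), of the arm with INTS13 and INTS14, had 1, 0 and 5 counts in hNABP2 KO, 1, 0 and 12 in hNABP1 KO and 0, 0 and 9 in WT. Repeat 3 gave 43.1 CPM in hNABP2 KO, 104 in hNABP1 KO and 54.8 in WT. The hNABP1 KO libraries were above WT in 2 repeats and equal at 0 in the other, with a repeat 3 ratio of 1.90 (0.734 to 5.1) and a log2 fold change of 1.33 (SE 1.61, edgeR adjusted p = 0.999). The groups overlapped.

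**Figure D2:**
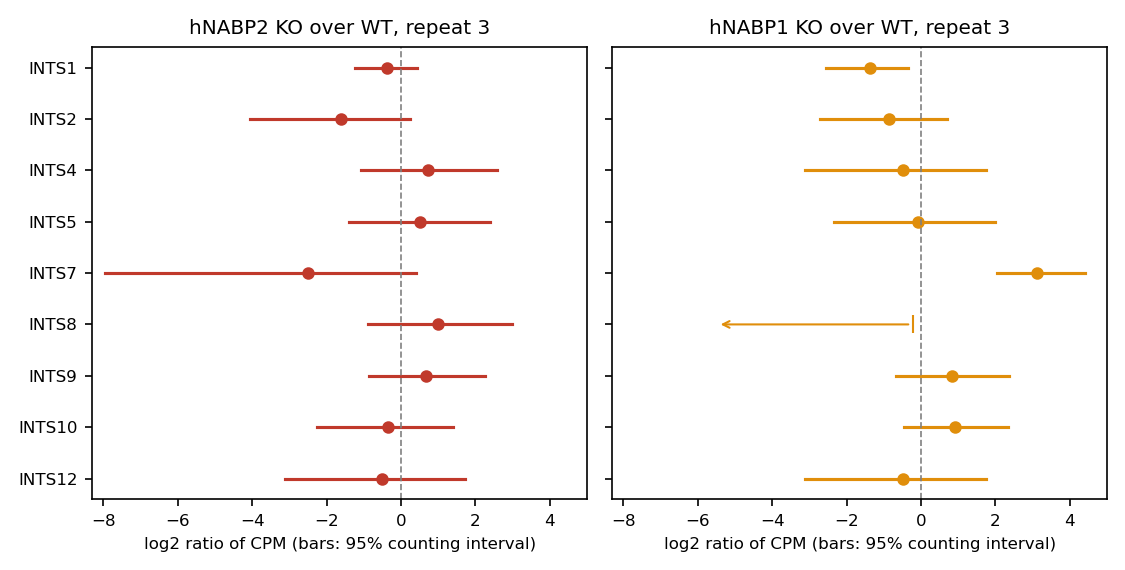
Log2 ratio of CPM in repeat 3 with NTP for hNABP2 KO over WT (left) and hNABP1 KO over WT (right), with 95% Clopper-Pearson counting intervals as bars. The arrow marks INTS8, with 0 counts in hNABP1 KO, from the limit of 3 counts downwards. The interval lies above equality for INTS7 in hNABP1 KO, at a ratio of 8.71, and below it for INTS1 in hNABP1 KO, at 0.385.

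Within repeat 3, INTS1 in hNABP1 KO was 0.385 times WT (0.171 to 0.789), and INTS1 in hNABP2 KO 0.766 times WT (0.421 to 1.36). The first interval covers counting error in 1 pair of libraries only. INTS1 had 0 counts in hNABP1 KO and 1 in WT in repeat 1. In repeat 2 it had 2 counts in hNABP1 KO (265 CPM) and 1 in WT (170 CPM). These counts lie under the limit of 3 counts, so repeats 1 and 2 cannot show a direction. Apart from INTS7 and INTS1, every member's hNABP1 KO interval included a ratio of 1, and all 9 intervals of hNABP2 KO did.

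In hNABP2 KO against WT 0 of the 9 were called at an adjusted p under 0.05, where 0% of 13447 genes were. At an unadjusted p under 0.05 it was 0 of the 9, against 41 genes or 0.305%, and DESeq2 called 0 genes with 1 under the unadjusted threshold. Their median log2 fold change was 0.19 and that of all genes 0.07. In hNABP1 KO against WT 0 of the 9 were called (0% of all) and 1, INTS7, was under the unadjusted threshold (163 genes, 1.21%; 8 by DESeq2, which called 0). INTS7 was tested only through hNABP1 KO repeat 3, where it is high, so this count cannot be set against the 1.21%. The median of the members was 0.10, also with INTS8 at its limit, and -0.03 for all genes.

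Between the knockouts, hNABP2 KO against hNABP1 KO, 0 of the 9 were called without a block (0% of all genes), and 2, INTS7 and INTS8, were under the unadjusted threshold (248 genes, 1.84%; 11 by DESeq2, which called 0). INTS7 passed the filter of 10 counts only through hNABP1 KO repeat 3. INTS8, with 12 counts, did not pass it without the 7 of hNABP2 KO repeat 3. Each is high in that library, so the 2 of 9 cannot be set against the 1.84%. The median of the members was -0.29 and of all genes 0.12. Both knockout comparisons share the WT libraries. In none of the 3 comparisons did the groups of any member separate without overlap, where 2.07%, 2.03% and 2.71% of genes did so for hNABP2 KO against WT, hNABP1 KO against WT and hNABP2 KO against hNABP1 KO. INTS4, INTS5, INTS7, INTS8 and INTS12 had 0 counts in repeats 1 and 2 of every group with NTP, so their groups could not separate. For them the overlap is no result.

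**Figure D3:**
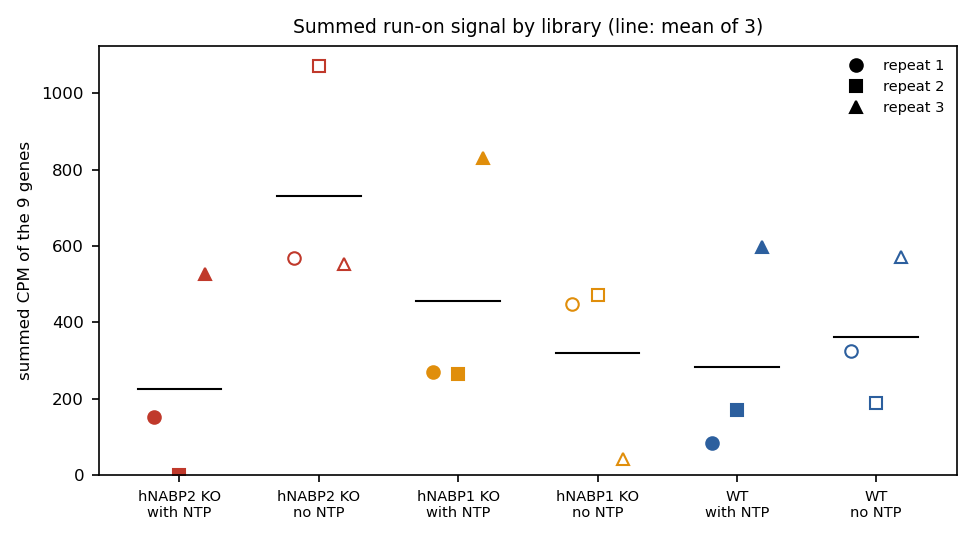
Summed CPM of the 9 genes in each of the 18 run-on libraries, with filled markers for libraries with NTP, open markers for no NTP, and a line at the mean of each group. The groups overlap, and hNABP2 KO without NTP has the highest mean, 732 CPM.

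Libraries without NTP give the background of the run-on, since polymerases cannot extend there. The summed level of the 9 genes with NTP was 153, 0 and 526 CPM in hNABP2 KO, with a mean of 226 ± 271 CPM. Without NTP the same cells gave 569, 1072 and 554 CPM, with a mean of 732 ± 295 CPM (SD, n = 3 each). In hNABP2 KO the level with NTP was thus below that without in all 3 repeats. It rests on 3, 0 and 61 counts with NTP and 6, 9 and 44 without. Repeats 1 and 2 are near the limit of 3 counts, and repeat 3 differed little, at 526 and 554 CPM. The direction is therefore uncertain at this depth. The hNABP1 KO libraries gave 270, 265 and 831 CPM with NTP (mean 455 ± 325) and 448, 471 and 41.9 CPM without (mean 320 ± 241). Only repeat 3 was higher with NTP there, and the values without NTP rest on 3, 3 and 1 counts. WT gave 83.5, 170 and 596 CPM with NTP (mean 283 ± 275) and 325, 190 and 572 CPM without (mean 362 ± 194), and again repeat 3 alone was higher with NTP. The WT values without NTP rest on 3, 1 and 11 counts. The means with NTP depend on repeat 3, and without it they were 76.6 CPM in hNABP2 KO, 268 in hNABP1 KO and 127 in WT. Without repeat 2 the hNABP2 KO mean was 340 CPM.

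INTS1, with the most counts, was higher on average without NTP in each genotype. Without NTP it averaged 389 ± 391.6 CPM in hNABP2 KO, 306 ± 265 in hNABP1 KO and 221 ± 130 in WT (SD, n = 3 each), against the means with NTP given earlier. The values without NTP rest on 1, 7 and 19 counts in hNABP2 KO, 3, 3 and 0 in hNABP1 KO and 1, 1 and 7 in WT. INTS1 was higher with NTP in hNABP2 KO repeat 1 (102 against 94.8 CPM) and hNABP1 KO repeat 3 (86.6 CPM against 0 counts). In the other repeats it was lower with NTP, and the direction is uncertain at this depth. Its log2 fold change with over without NTP was -1.19 in hNABP2 KO (SE 1.17), -0.57 in hNABP1 KO (SE 1.31) and -0.20 in WT (SE 1.21), with edgeR adjusted p-values of 1.00, 0.852 and 0.996. In INTS10 of hNABP2 KO the listed values did not overlap, at 51.1, 0 and 43.1 CPM with NTP and 94.8, 119 and 63.0 CPM without. The counts behind these values were 1, 0 and 5 with NTP and 1, 1 and 5 without, and the 0 allows up to 456 CPM, so the separation does not hold at this depth. It was 1 of the 9, where 2.25% of genes did not overlap, and its log2 fold change of -0.77 (SE 1.51, edgeR adjusted p = 1.00) did not pass.

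Of the members with 0 counts in a no NTP library of repeat 3, INTS7 alone had a level with NTP above the limit of that library. In hNABP1 KO repeat 3 its 424 CPM with NTP were at least 3.37-fold higher than the limit of 126 CPM that 0 counts allow without NTP. Its edgeR p was 0.00541 unadjusted and 0.500 adjusted, and INTS10 gave 0.0458 unadjusted with the same adjusted p. INTS7 and INTS10 are 2 of 9 members under the unadjusted threshold in hNABP1 KO, where 927 genes or 6.22% were. The libraries of no member separated without overlap in hNABP1 KO or WT, where 2.6% and 2.1% of genes did. INTS5, INTS7 and INTS12 had 0 counts in repeats 1 and 2 with and without NTP, so they could not separate. In hNABP2 KO and WT no member was under the unadjusted threshold, where 2.41% and 1.09% of genes were. No member and no gene was called in any of the 3 comparisons of with NTP against no NTP (0% each), nor for the dependence of the NTP effect on either genotype label (0% each). Unadjusted, 1.66% of genes and 0 members were under the threshold for the hNABP2 KO label, and 2.45% of genes and 0 members for the hNABP1 KO label. With the repeat block 1 gene was called for NTP in hNABP1 KO (0.00671%), not a member. DESeq2 called 0 genes for NTP, with 7 under the unadjusted threshold in hNABP2 KO, 162 in hNABP1 KO and 23 in WT, and 0 for its dependence on the label, with 13 for hNABP2 KO and 39 for hNABP1 KO.

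Run-on peaks within 1 kb of a gene end came mainly from the same hNABP1 KO library. In hNABP1 KO repeat 3, 6 of the 9 genes had one (INTS2, INTS4, INTS5, INTS7, INTS9 and INTS10), where 29.4% of protein-coding genes did. Whether the peaks of this library were called with the settings of the others is not known, so the 6 of 9 and the folds below cannot be set against the other lists. In WT repeat 3 it was INTS4 alone (1.17% of genes) and in hNABP1 KO repeat 2 INTS8 alone (0.764%). Of the other lists, repeat 1 named 0 members at 0.489% of genes in hNABP2 KO, 1.2% in hNABP1 KO and 0.225% in WT. Repeat 2 named 0 members at 0.619% in hNABP2 KO and 0.534% in WT, and repeat 3 named 0 at 0.19% in hNABP2 KO. INTS10 had the highest fold, 21.5, with a −log10 q of 40.3 at chr8:19817165-19817698, overlapping the site of its ChIP peak in WT.

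INTS4 was the only member with run-on peaks in both hNABP1 KO and WT. In hNABP1 KO repeat 3 its peak reached from 314 bases before the start to 26 bases after it (fold 10.0, −log10 q 13.4), and in WT repeat 3 from 383 to 89 bases before the start (fold 6.51, −log10 q 4.25). INTS2 had a weak peak over its first bases, with a fold of 4.53 and a −log10 q of 2.58. At INTS9 the peak (fold 6.01, −log10 q 5.06) lay by the start it shares with HMBOX1, 146 bases away. The INTS5 peak (fold 8.14, −log10 q 10.7) at chr11:62646379-62646735 lay outside INTS5, beyond its 3′ end, and covered the boundary of the neighbouring GANAB that faces INTS5 (chr11:62624829-62646613). It was counted for INTS5 only because it lay within 1 kb of a gene end, and whether its signal belongs to GANAB was not tested. The hNABP2 ChIP peak, in contrast, lay at the INTS5 start. In hNABP1 KO repeat 2 the INTS8 peak had a fold of 3.94 and a −log10 q of 3.40 although the count table gave INTS8 0 counts there. None of the 4 DRIP-seq lists, of 13 to 173 peaks, named a member. Only 0.0150% to 0.245% of protein-coding genes had a DRIP-seq peak within 1 kb of an end. At such shares the lack of a member says little about hybrids at these genes.

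**Figure D4:**
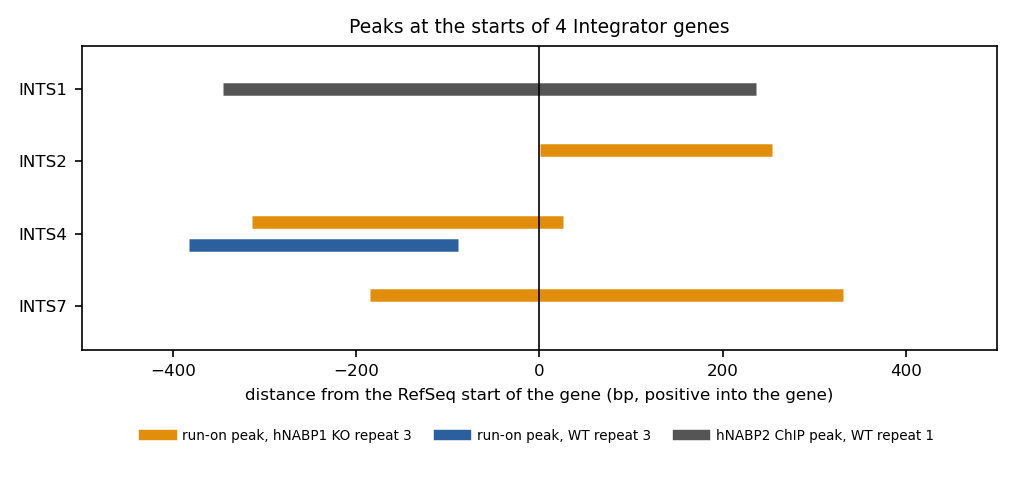
Extent of the peaks at the starts of INTS1, INTS2, INTS4 and INTS7, in bases from the RefSeq start with positive values inside the gene. Bars show run-on peaks of hNABP1 KO repeat 3 and of WT repeat 3 and the hNABP2 ChIP peak of WT repeat 1. The INTS7 run-on peak reaches 331 bases into the gene, and the INTS4 peaks lie mostly before the start.

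Among genes that work with these subunits, no list had a member called in either direction in any of the 3 genotype comparisons. This held for 9 tested of 11 other Integrator and SOSS genes, 4 of 4 PP2A core genes, 9 of 9 snRNA transcription genes, 11 of 11 pausing genes, 9 of 10 mRNA 3′ cleavage genes and 4 of 83 U snRNA symbols. In hNABP1 KO against WT the smallest p-values were those of C7orf26, which encodes INTS15, with a log2 fold change of 2.87 (SE 1.45, edgeR adjusted p = 0.999), and of the pausing gene NELFA, with 2.98 (SE 1.34, edgeR adjusted p = 0.999). With NTP, C7orf26 had 0, 0 and 12 counts in hNABP2 KO, 0, 0 and 42 in hNABP1 KO and 0, 0 and 7 in WT, with the high value in hNABP1 KO repeat 3, as for INTS7. In hNABP2 KO repeat 3 the gene stood at 104 CPM, against 42.6 CPM in WT, where INTS7 was lower in hNABP2 KO than in WT. In hNABP2 KO against WT the largest fitted value among the smallest p-values was that of CSTF3, at 2.1 (SE 1.73, edgeR adjusted p = 1.00). CSTF3 had 10 counts over the 9 libraries with NTP, the fewest that the filter admits.

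The median log2 fold change of the other Integrator and SOSS genes was -0.13 in hNABP2 KO and 0.40 in hNABP1 KO against WT. For PP2A it was -0.04 in hNABP2 KO and -0.06 in hNABP1 KO, and for the pausing genes 0.11 in hNABP2 KO and 0.10 in hNABP1 KO. The snRNA transcription genes had -0.08 in hNABP2 KO and -0.51 in hNABP1 KO, and the mRNA 3′ cleavage genes -0.05 in hNABP2 KO and 0.21 in hNABP1 KO. The 4 U snRNA symbols tested had -0.40 in hNABP2 KO and 0.42 in hNABP1 KO.

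The genes whose levels followed INTS1 most closely over the 18 libraries, among 2258 genes with total counts within 2-fold of its own, were GALNS (Pearson's r = 0.67), TCP11L1 (0.67) and CDK6 (0.64), where the median of the candidates was -0.03. These values are on log2 CPM and share each library's depth, and they are a description. They were picked as the highest of 2258, so the median beside them does not show how unusual they are.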

How the data were processed

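The deposited table held raw counts per gene symbol, not normalized by the authors. The fold, −log10 p and −log10 q of each peak are the authors' deposited values, the fold being a ratio over local background. Per the submitters' processing notes, cutadapt 1.18, Bowtie2 2.3.5, SAMtools, MACS2 2.2.1 and hg38 were used, with no strand setting of the counting stated. The deposited run-on, DRIP and ChIP repeat 2 lists also hold a whole-number peak score made from the −log10 q, which was not used. The list of ChIP repeat 1 holds the −log10 q in its place. Peak lists were called per library. The members and gene lists were chosen with earlier results of these data known. The 9 members are all named, and of the other lists the gene with the smallest p in each direction was eligible to be named.

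CPM are counts over the library total of all genes. Tests used edgeR 4.0.16 in R 4.3.3 (TMM, quasi-likelihood F test, Benjamini-Hochberg over all genes, threshold 0.05) on genes with at least 10 counts over the libraries of the fit. That left 13447 genes for the genotype comparisons (9 libraries with NTP) and 14907 for the NTP comparisons (18 libraries), and all 9 members passed both. The script was tested on simulated data with 200 changed genes and no repeat effect. That test does not show the power of the fits reported here. The default edgeR filter, filterByExpr, left 129 and 211 genes and no member. Intervals are 95% Clopper-Pearson, and they and the limit of 3 counts cover counting error only. Alternatives were DESeq2 1.42.0, its size factors, other filters, a repeat block and leaving out each library. Libraries of the same repeat number deviated together (r 0.237 to 0.536 over 9 pairs), libraries of different numbers did not (-0.323 to 0.00193 over 18 pairs). Levels were centred within each group for this, which lowers r between different numbers. Repeat 3 was also the deepest in every genotype. These values therefore cannot tell pairing from shared depth, and the number was used as a block in an alternative fit only.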

Additional observations from a re-analysis of the deposited data

How the results depend on the processing

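Depth limits these results, since repeat 3 holds most counts of the 9 genes. With DESeq2's size factors in edgeR the median log2 fold change of all genes moved by -0.20 in hNABP2 KO against WT, -0.19 in hNABP1 KO against WT, 0.71 for NTP in hNABP1 KO and 0.55 for NTP in WT. Calls then numbered 3 for NTP in hNABP1 KO and 1 for NTP in WT, in place of 0, none a member. With the replicate block calls numbered 16 in hNABP1 KO against WT, 19 in hNABP2 KO against hNABP1 KO (INTS7 among them) and 1 for NTP in hNABP1 KO. The block changed no other call of a member. With the block and without hNABP1 KO repeat 3, chosen after seeing the data, 1 gene was called for NTP in WT and 0 in the genotype comparisons. The direction turned for INTS10 in hNABP2 KO (-0.0772 with DESeq2's size factors), for INTS2 in hNABP1 KO (-0.14 with those size factors, -0.00296 without a filter, -0.0923 with the block) and for INTS4 in hNABP1 KO (0.46 with the block and without hNABP1 KO repeat 3), and the cause was not tested. Leaving out 1 library at a time turned the direction of some log2 fold changes against WT, whose bounds follow. In hNABP2 KO they were -1.57 and 0.82 for INTS1, -2.95 and 3.07 for INTS5, -3.43 and 1.4587 for INTS7, -3.33 and 3.66 for INTS9, and -0.42 and 3.47 for INTS10. In hNABP1 KO they were -1.32 and 0.57 for INTS1, -0.51 and 0.49 for INTS2, -3.11 and 2.62 for INTS4, -3.10 and 2.93 for INTS5, -0.12 and 4.60 for INTS10, and -0.49 and 0.18 for INTS12. Without a turn in direction the bounds were -3.86 and -0.95 for INTS2, 0.18 and 3.24 for INTS4, and 0.41 and 1.09 for INTS8 in hNABP2 KO, 0.00542 and 4.41 for INTS9 and 2.54 and 6.11 for INTS7 in hNABP1 KO. Of these, INTS9 alone was tested in every fit. The others fell under the filter of 10 counts when a repeat 3 library that held many of their counts was left out. Their bounds therefore cannot show whether the direction depends on that library. Fits that left out 1 library called 0 genes in all 8 comparisons. The ChIP counts of 3 and 0 members were the same for peaks with a −log10 q of at least 4 and within 3 kb of a start.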
